A study of Mus musculus with 8 samples.

Results

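The pancreatic genes for fat digestion comprise 6 of the 48709 genes listed in each library of this pancreas RNA-Seq series: *Pnlip*, *Pnliprp1*, *Pnliprp2*, *Cel*, *Clps*, and *Pla2g1b*. They were found by their exact gene names, and all 6 passed the filter on low values. Pancreata came from male mice aged 8 weeks, in 4 groups of 2 libraries each. WT saline and WT FAEE-SAP mice carried no engineered allele and were bought from a supplier. cKO saline and cKO FAEE-SAP mice carried *Pfkfb3* fl/fl with *Pdx1*-Cre, in which Cre under the *Pdx1* promoter removes exons 2 and 3 of *Pfkfb3* across the pancreatic lineage, so that acinar, ductal, and endocrine cells can all be deleted. FAEE-SAP is alcoholic severe acute pancreatitis. It was induced after a fast with hourly injections, given for 2 hours, of palmitoleic acid (POA, 150 mg/kg) with ethanol. Saline came before these injections, and buprenorphine was given with the first of them. The saline groups received saline, and pancreata were taken 24 hours later. cKO and WT mice came from different sources, so genotype and origin cannot be told apart, and no source used here says whether the 2 libraries of a group came from separate mice, so p-values measure only the spread between them.

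Acinar cells make and secrete the enzymes that digest dietary fat. Pancreatic triglyceride lipase (*Pnlip*) cleaves triglycerides at the surface of fat droplets, where bile salts displace it unless colipase (*Clps*), a small protein with no lipase activity of its own, anchors it there. Carboxyl ester lipase (*Cel*) is activated by bile salts, cleaves cholesteryl and other esters, and can also join fatty acids to ethanol as fatty acid ethyl esters, the compounds that give FAEE-SAP its name. Pancreatic phospholipase A2 (*Pla2g1b*) is secreted as a proenzyme and releases fatty acids from phospholipids.

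Libraries held about 22.9 to 37.8 M reads, estimated from the step between low RPKM values (reads per kilobase of exon, scaled to the reads of the library). *Pfkfb3* stood at 1.24 and 1.46 RPKM in WT mice after saline and 3.75 and 6.22 after FAEE-SAP, and 0.546 and 1.39 in cKO mice after saline and 1.82 and 2.75 after FAEE-SAP. These whole-gene values include exons that Cre leaves in place, so they do not check the deletion, and the saline genotypes overlapped. The labelled tissue was borne out by its defining genes: the 20 other digestive enzyme genes used below held 43.6% to 54.5% of the summed RPKM of a library. Neutrophil markers moved with the treatment. Their summed level was 1.65 to 2.70 scaled RPKM in WT mice after saline and 57.2 to 60.9 after FAEE-SAP, and 1.60 to 3.89 in cKO mice after saline and 13.6 to 20.2 after FAEE-SAP, and *Ly6g* was listed at 0 in both saline groups. All 7 neutrophil markers tested, of 10 listed, were called higher in WT FAEE-SAP than in WT saline, beside 3.36% of all genes. Most of the 7 passed the filter on low values only through FAEE-SAP libraries. Their direction was thus largely fixed by the filter, and this count is no test of a rise. Acinar markers that are not enzymes moved the other way, and 9 of 14 were called lower in that comparison, beside 4.12% of all genes. Their summed level was 16440 to 19890 scaled RPKM in WT mice after saline and 5126 to 5246 after FAEE-SAP, and 21280 to 23030 in cKO mice after saline and 12840 to 13840 after FAEE-SAP. In tissue RNA, fewer acinar cells and less RNA per acinar cell cannot be told apart, and the part of either in the results below was not tested.

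In the GENCODE vM21 annotation of GRCm38, the 3 lipase genes of the *Pnlip* family lie on the plus strand of chromosome 19, with a noncoding RNA gene and the pseudogene *1810018F18Rik* between *Pnlip* and *Pnliprp1*. *Pnlip* spans chr19:58652498-58681788, *Pnliprp1* spans chr19:58728887-58744169, and *Pnliprp2* spans chr19:58759719-58777534. *Cel* lies on the minus strand at chr2:28555795-28563403 and overlaps *Gm13381* on the opposite strand. *Clps* lies on the minus strand at chr17:28558149-28560766, and its span holds the miRNA gene *Mir6969* on the same strand. *Pla2g1b* lies on the plus strand at chr5:115466262-115474722. No stretch of 50 bases in the annotated transcripts of the 6 genes occurs in transcripts of another gene. The shortest exonic length was that of *Clps*, 611 bases in 3 exon blocks, and the longest that of *Pnliprp1*, 2223 bases.

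Promoters are shown because acinar enzyme promoters are known for binding the PTF1 complex, which reads an E-box beside a TTCCCA box. Any part of PTF1 in the differences below was not tested. RefSeq (GRCm38.p6) gave the 250 bases before the start site for 5 of the 6 genes, all but *Clps*. The 4 promoters with a match to a searched motif are printed 5′ to 3′ on the gene's strand, from chr19:58670115-58670364 (plus), chr19:58728637-58728886 (plus), chr19:58759473-58759722 (plus), and chr2:28563404-28563653 (minus). Capitals mark CACCTG or TTCCCA on either strand and, on the gene's strand, TATAAA.
Pnlip: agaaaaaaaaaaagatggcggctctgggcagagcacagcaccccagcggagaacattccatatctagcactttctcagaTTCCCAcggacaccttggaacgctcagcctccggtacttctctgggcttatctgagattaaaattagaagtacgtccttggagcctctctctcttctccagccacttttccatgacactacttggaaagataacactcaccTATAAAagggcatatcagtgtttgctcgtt
Pnliprp1: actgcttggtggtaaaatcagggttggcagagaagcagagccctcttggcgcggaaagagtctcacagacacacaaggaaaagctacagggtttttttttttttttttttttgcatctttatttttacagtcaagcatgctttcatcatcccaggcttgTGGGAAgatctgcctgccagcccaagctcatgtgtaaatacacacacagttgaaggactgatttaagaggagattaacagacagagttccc
Pnliprp2: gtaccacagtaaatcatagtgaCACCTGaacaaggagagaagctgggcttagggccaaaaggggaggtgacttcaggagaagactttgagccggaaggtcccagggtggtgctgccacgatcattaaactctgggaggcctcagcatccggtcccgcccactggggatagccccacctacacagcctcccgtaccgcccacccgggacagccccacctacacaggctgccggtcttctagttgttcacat
Cel: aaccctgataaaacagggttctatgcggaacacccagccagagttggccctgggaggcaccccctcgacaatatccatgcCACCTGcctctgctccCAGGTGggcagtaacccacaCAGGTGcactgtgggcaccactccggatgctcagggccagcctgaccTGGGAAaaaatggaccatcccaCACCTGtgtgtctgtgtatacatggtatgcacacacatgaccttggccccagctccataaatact
*Cel* held 4 CACCTG matches, which began 170, 154, 134, and 65 bases before the start site, and a TTCCCA match on the opposite strand 87 bases before it. *Pnlip* held TTCCCA 171 bases and TATAAA 30 bases before the start site. *Pnliprp1* held TTCCCA on the opposite strand 91 bases before it, *Pnliprp2* held CACCTG 228 bases before it, and *Pla2g1b* (chr5:115465892-115466141) held none. Of 32851 mouse promoters of the same length, also searched on either strand, 17.2% held CACCTG, 21.6% held TTCCCA, 3.91% held both, and 12.4% held TATAAA. A match is thus a description and not a bound site. The RefSeq start of *Pnlip* lies inside the longer GENCODE span.

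*Pnlip* was the most abundant of the 6 in every library. In deposited RPKM, which is per length and can be compared between genes, the order of group means in WT saline was *Pnlip* (27555 ± 2179, mean ± SD, n = 2), *Clps* (16001 ± 1249), *Pnliprp1* (9853 ± 1173), *Cel* (9849 ± 1202), *Pnliprp2* (2081 ± 30.4), and *Pla2g1b* (812 ± 21.2). The ranges of *Pnliprp1* and *Cel* overlapped in WT saline, cKO saline, and WT FAEE-SAP, so these neighbors did not differ beyond their spread. In WT FAEE-SAP, *Clps* moved from the second place to the fourth, at 2777 ± 332, behind *Pnliprp1* (6314 ± 604) and *Cel* (5555 ± 1302). In cKO FAEE-SAP it was again the second, at 11380 ± 311. Of the summed RPKM, the 6 genes together took 11.0% and 12.5% in WT mice after saline and 5.82% and 6.56% after FAEE-SAP, and 11.3% and 10.6% in cKO mice after saline and 8.72% and 7.66% after FAEE-SAP. Both WT FAEE-SAP libraries were below the other 6. Of this sum, *Clps* made up 21.3% to 25.1% in the 6 libraries of the other groups and only 10.4% and 7.84% in WT FAEE-SAP.

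**Figure D1:**
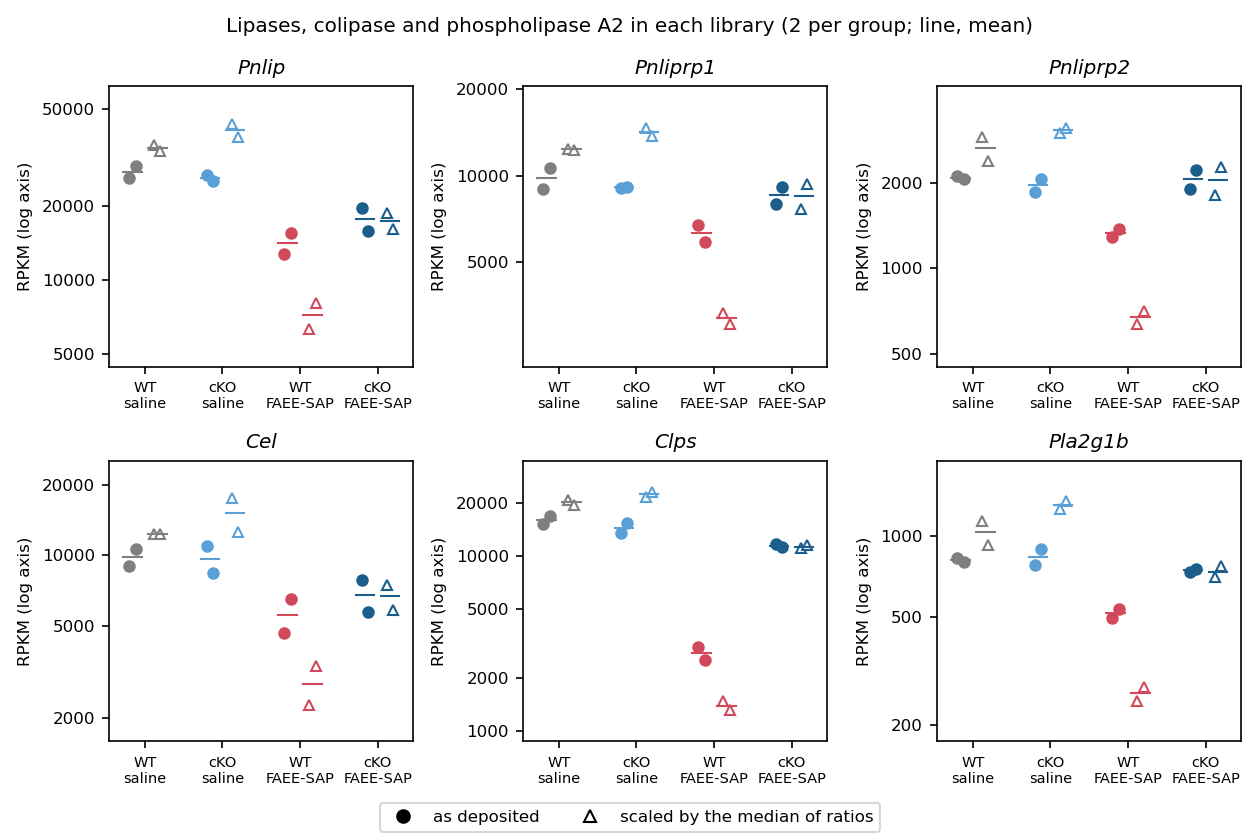
RPKM on a log axis for the 6 genes in the 8 libraries, as deposited (filled circles) and scaled by the median of ratios (open triangles), with a line at each group mean. *Clps* fell to 3011 and 2542 RPKM as deposited in WT FAEE-SAP and stood at 11600 and 11160 in cKO FAEE-SAP.

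The lipases of the *Pnlip* family are described first. *Pnlip* read 26015 and 29096 RPKM as deposited in WT mice after saline and 12826 and 15587 after FAEE-SAP, and 26892 and 25484 in cKO mice after saline and 19608 and 15829 after FAEE-SAP. All 4 FAEE-SAP libraries were below all 4 saline libraries, and the genotypes did not overlap after FAEE-SAP, although they nearly touched at 15587 and 15829. Because RPKM expresses a gene's part of its library, a fall of abundant genes raises the rest, and most other genes took a larger share after FAEE-SAP: the median gene was 1.23 higher on the log2 scale in WT FAEE-SAP than in WT saline as deposited, 0.57 higher in cKO FAEE-SAP than in cKO saline, 0.90 lower in cKO than in WT after FAEE-SAP, and 0.25 lower in cKO than in WT after saline. Values were therefore also scaled by the median of ratios, which sets the median gene near no change. On that scale *Pnlip* was 35737 and 33598 in WT mice after saline and 6337 and 8054 after FAEE-SAP, and 43311 and 38316 in cKO mice after saline and 18736 and 16228 after FAEE-SAP.

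*Pnliprp1* and *Pnliprp2*, the lipase-related proteins, are close relatives of *Pnlip*. The first has little known lipase activity, and the second also cleaves galactolipids. *Pnliprp1* was 9023 and 10683 RPKM as deposited in WT mice after saline and 6741 and 5887 after FAEE-SAP, and 9079 and 9174 in cKO mice after saline and 7993 and 9116 after FAEE-SAP. The latter group overlapped cKO saline, whereas WT FAEE-SAP was below all other libraries. *Pnliprp2* was 2102 and 2059 RPKM in WT mice after saline and 1289 and 1376 after FAEE-SAP, and 1857 and 2059 in cKO mice after saline and 1891 and 2210 after FAEE-SAP. Its deposited level in cKO FAEE-SAP overlapped both saline groups. After scaling, *Pnliprp1* was 12396 and 12336 in WT mice after saline and 3330 and 3042 after FAEE-SAP, and 14623 and 13793 in cKO mice after saline and 7638 and 9345 after FAEE-SAP, and *Pnliprp2* was 2888 and 2378, 637 and 711, 2991 and 3096, and 1807 and 2265 in the same order of groups.

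*Cel*, the lipase that can make fatty acid ethyl esters, was 8999 and 10699 RPKM as deposited in WT mice after saline and 4634 and 6475 after FAEE-SAP, and 11008 and 8372 in cKO mice after saline and 7852 and 5692 after FAEE-SAP. The FAEE-SAP genotypes overlapped on this scale. Scaled values were 12362 and 12354 in WT mice after saline and 2289 and 3346 after FAEE-SAP, and 17729 and 12588 in cKO mice after saline and 7503 and 5836 after FAEE-SAP, where the genotypes did not overlap. In the scaled values of cKO saline and WT FAEE-SAP, its libraries lay further apart than those of the other genes, with a CV of 24.0% and 26.5%.

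*Clps*, the cofactor of *Pnlip*, moved most in WT mice, though not in cKO mice. It was 15118 and 16884 RPKM as deposited in WT mice after saline and 3011 and 2542 after FAEE-SAP, and 13417 and 15404 in cKO mice after saline and 11600 and 11160 after FAEE-SAP. Its rank among all genes of a library was 13 in each of the 4 saline libraries, 28 in both WT FAEE-SAP libraries, and 14 in both cKO FAEE-SAP libraries. Scaled values were 20768 and 19496 in WT mice after saline and 1488 and 1313 after FAEE-SAP, and in cKO mice 21609 and 23160 after saline and 11085 and 11441 after FAEE-SAP. The WT FAEE-SAP libraries stood far below the other 6 on both scales.

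*Pla2g1b*, the phospholipase, was 827 and 797 RPKM as deposited in WT mice after saline and 496 and 535 after FAEE-SAP, and 778 and 890 in cKO mice after saline and 736 and 751 after FAEE-SAP. Scaled values were 1136 and 921, 245 and 276, 1253 and 1338, and 703 and 770 in the same order. It was the least abundant of the 6 in every group, and its WT FAEE-SAP libraries were below all others on both scales.

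The comparison of FAEE-SAP with saline in WT mice asked how the pancreatitis model changed the tissue, and all 6 genes fell. *Clps* fell most, 14.4-fold (log2 fold change of scaled RPKM + 0.1 of -3.85, SE 0.13, limma adjusted p = 7.05e-05). *Pnlip* was 4.85-fold lower (log2 fold change -2.28, SE 0.16, limma adjusted p = 0.000715), and *Cel* was 4.47-fold lower (-2.16, SE 0.24, 0.00395). The other 3 genes were 3.88- to 3.93-fold lower. A gene was called at a limma adjusted p under 0.05 with a change of at least 2-fold. Among all 11133 genes tested 4.12% were called lower, and both WT FAEE-SAP libraries were below both WT saline libraries for 29.4%, as for all 6 genes here. On the deposited values, only *Clps* was called lower (log2 fold change -2.53, limma adjusted p = 0.000139, 5.77-fold), beside 0.719% of all genes. The other 5 were 1.56- to 1.95-fold lower there at a limma adjusted p of 0.00104 to 0.0112, so they missed the fold minimum alone. With quantile normalization 3 of the 6 were called, a count given here without the share of all genes called under that scaling.

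In cKO mice the same treatment left all 6 genes lower on the scaled values, by 0.59 to 1.22 on the log2 scale, and none was called. *Pnlip* was 2.34-fold lower (SE 0.16, limma adjusted p = 0.0596), *Cel* was 2.26-fold lower (SE 0.24, 0.161), and *Clps* was 1.99-fold lower (SE 0.13, 0.0596). *Pnliprp2* had the smallest difference (log2 fold change -0.59, SE 0.17, limma adjusted p = 0.294). All 6 had both cKO FAEE-SAP libraries below both cKO saline libraries, as did 21.9% of all genes, and 0.00898% of all genes were called lower. As deposited, *Pnliprp2* was 0.06 higher on the log2 scale, so its direction turned with the scaling. The call for *Pnlip* also turned with the settings: with a minimum of 2 RPKM in place of 0.5 its limma adjusted p was 0.0412.

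After saline, the 6 genes were 1.11- to 1.27-fold higher in cKO than in WT on the scaled values, at a limma adjusted p of 1. No gene of the whole table was called by limma (0.0%), and 293 had an unadjusted p under 0.05. Both WT libraries were below both cKO libraries for all 6 genes after scaling, as for 15.6% of all genes. As deposited, 5 of the 6, all but *Pla2g1b*, were lower in cKO by 0.03 to 0.15 on the log2 scale.

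After FAEE-SAP, the comparison of cKO with WT asked whether loss of *Pfkfb3* changed the diseased pancreas, and all 6 genes were higher in cKO after median-of-ratios scaling, although quantile normalization turned *Pnlip* (log2 fold change -0.15) and *Cel* (-0.36). *Clps* was 8.06-fold higher (log2 fold change 3.01, SE 0.13, limma adjusted p = 0.000415). *Pnliprp2* was 3.01-fold higher (SE 0.17, limma adjusted p = 0.00724), *Pla2g1b* 2.83-fold, *Pnliprp1* 2.65-fold, *Pnlip* 2.44-fold (limma adjusted p = 0.0129), and *Cel* 2.39-fold (SE 0.24, 0.0437). All 6 were called, beside 1.66% of all genes called higher, and WT lay below cKO without overlap for all 6 and for 26.8% of all genes. As deposited, only *Clps* was called higher, 4.11-fold (limma adjusted p = 0.00127), beside 0.692% of all genes, and *Cel* was 1.22-fold higher (limma adjusted p = 0.293). Islet markers moved with these libraries too: 4 of 7 were called higher in cKO than in WT after FAEE-SAP, and their summed level was 182 to 240 scaled RPKM in WT mice and 428 to 450 in cKO mice, and their part in the difference was not tested. Of the neutrophil markers 1 of 7 was called lower in cKO, beside 0.988% of all genes. Scaled to the other enzymes, all 7 were called lower, beside 73.3% of all genes. After median-of-ratios scaling, 7 of 14 acinar markers that are not enzymes were called higher. This comparison shares the WT FAEE-SAP libraries with the treatment comparison in WT, so the same 2 low libraries enter both.

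These calls depended on single libraries and on the settings. Without the second cKO FAEE-SAP library only *Clps* was called, and the other 5 genes had log2 fold changes of 1.26 to 1.44 at a limma adjusted p of 0.0601 to 0.112. Without the second WT FAEE-SAP library *Clps* and *Pnlip* were called. Without the first cKO FAEE-SAP library *Pnlip* (limma adjusted p = 0.0853) and *Cel* (0.173) were lost. *Cel* was also lost without either WT saline library (limma adjusted p = 0.0839 and 0.0824) and without either WT FAEE-SAP library (0.104 and 0.108). With other settings it was lost without the intensity trend (limma adjusted p = 0.0666), with only the libraries compared (0.0821), with the replicate block (0.0743), and with no filter on low values (0.180), and it was kept under 8 of 20 alternatives. *Clps* was called in each of the 8 fits that left out 1 library.

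**Figure D2:**
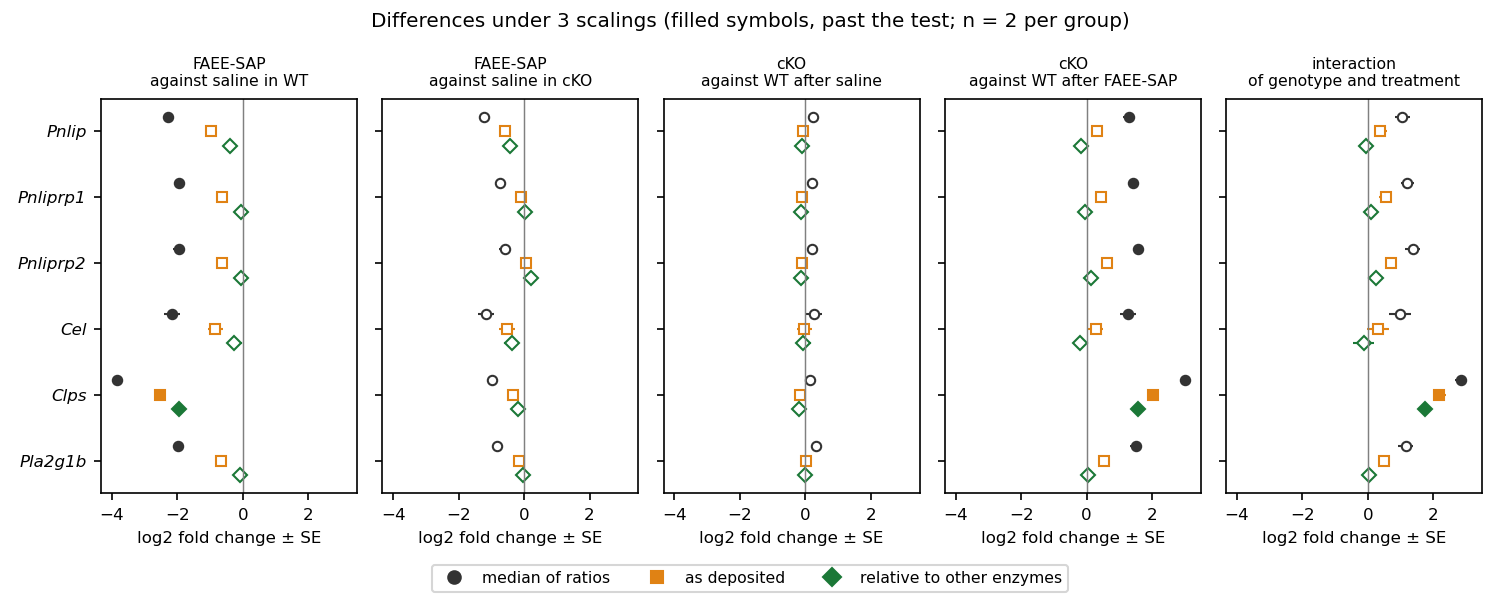
Log2 fold change ± SE of the 6 genes in 4 comparisons and in the interaction, under 3 scalings, with filled symbols for genes past the test. *Clps* is the only gene with filled symbols under all 3 scalings, at -3.85, -2.53, and -1.95 in WT.

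Whether the treatment effect differed between genotypes was tested with the interaction term, and *Clps* was the only one of the 6 called. Its response to FAEE-SAP was 2.86 higher on the log2 scale in cKO than in WT (SE 0.18, limma adjusted p = 0.00722). Of all 11133 genes, 0.0449% were called higher in the interaction. The estimates of the other 5 ran from 0.98 (*Cel*, SE 0.34, limma adjusted p = 0.333) to 1.37 (*Pnliprp2*, SE 0.24, 0.140) and did not pass. As deposited, *Clps* was again the only one called, at 2.19 (SE 0.19, limma adjusted p = 0.0124), beside 0.189% of all genes. On the scaled values its call was lost without the first WT saline library (limma adjusted p = 0.0772), the first cKO FAEE-SAP library (0.0939), or the second (0.0919), while its estimate stayed between 2.77 and 2.95 over the 8 fits without 1 library. It was also lost with the replicate block (limma adjusted p = 0.0652) and with no filter on low values (limma adjusted p = 0.186), where the estimate was 2.79. With a minimum of 2 RPKM, *Pnliprp1* (1.29, limma adjusted p = 0.0383) and *Pnliprp2* (1.45, limma adjusted p = 0.0434) were called beside *Clps*.

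To compare the 6 genes with the rest of the acinar secretory program, values were also scaled to 20 other digestive enzyme genes, so that a difference is relative to the typical enzyme. *Clps* was the only one of the 6 called on this scale. *Clps* was 3.87-fold lower in WT FAEE-SAP than in WT saline relative to the other enzymes (log2 fold change -1.95, SE 0.15, limma adjusted p = 7.14e-05), and 0.323% of all genes were called lower. In cKO mice the same difference was -0.20 on the log2 scale (SE 0.15, limma adjusted p = 0.269). After FAEE-SAP it was 2.95-fold higher in cKO than in WT (limma adjusted p = 0.00038), beside 0.359% of all genes, and its interaction was 1.75 (SE 0.21, limma adjusted p = 0.0103), beside 0.359% of all genes as well. The calls for *Clps* on this scale held in each of the 8 fits without 1 library. The other 5 genes differed by 0.43 or less on the log2 scale in all comparisons, and none was called. *Pnlip* was lower in WT FAEE-SAP than in WT saline (log2 fold change -0.38, SE 0.15, limma adjusted p = 0.0390), below the fold minimum, and its difference in cKO mice was -0.43 (SE 0.15, limma adjusted p = 0.0546). Other acinar genes were called on this scale as *Clps* was. *Rnase1* was called lower in WT FAEE-SAP than in WT saline (log2 fold change -1.42, limma adjusted p = 0.0118), and *Rnase1* (1.26, 0.0225) and *Ctrc* (1.05, 0.00135) were called higher in cKO than in WT after FAEE-SAP. Of the 14 acinar markers that are not enzymes, *Serpini2*, a serine protease inhibitor, and *Bhlha15*, a transcription factor of mature acinar cells, were called lower in WT FAEE-SAP (log2 fold change -2.19 and -1.60), and 3 were called higher, *Cuzd1*, *Nr5a2*, and *Gp2*, fewer than the 87.3% of all genes called higher. In cKO mice *Nr5a2* was called higher, as were 15.0% of all genes. In the interaction *Bhlha15* (1.96), *Serpini2* (1.87), and *Zg16* were called higher and *Cuzd1* (-1.48) lower, as were 43.3% of all genes. After median-of-ratios scaling, the fall of *Serpini2* in WT mice, at -4.09 on the log2 scale (limma adjusted p = 0.00106), was larger than that of *Clps*, and its interaction of 2.98 was not called (limma adjusted p = 0.0999).

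Ratios within a library do not depend on any scaling between libraries. *Clps* per *Pnlip* was 0.581 and 0.580 in WT mice after saline and 0.235 and 0.163 after FAEE-SAP, and 0.499 and 0.604 in cKO mice after saline and 0.592 and 0.705 after FAEE-SAP. Both WT FAEE-SAP libraries were below the other 6, and the cKO FAEE-SAP libraries were within or above the range of the saline libraries. *Cel* per *Pnlip*, by contrast, was 0.328 to 0.415 over the 8 libraries, with all groups overlapping. *Pnliprp2* per *Pnlip* was 0.0690 to 0.0808 over the 4 saline libraries and 0.0883 to 0.140 over the 4 FAEE-SAP libraries, so it was higher in all 4 FAEE-SAP libraries, as was *Pnliprp1* per *Pnlip* (0.338 to 0.367 over the saline and 0.378 to 0.576 over the FAEE-SAP libraries).

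**Figure D3:**
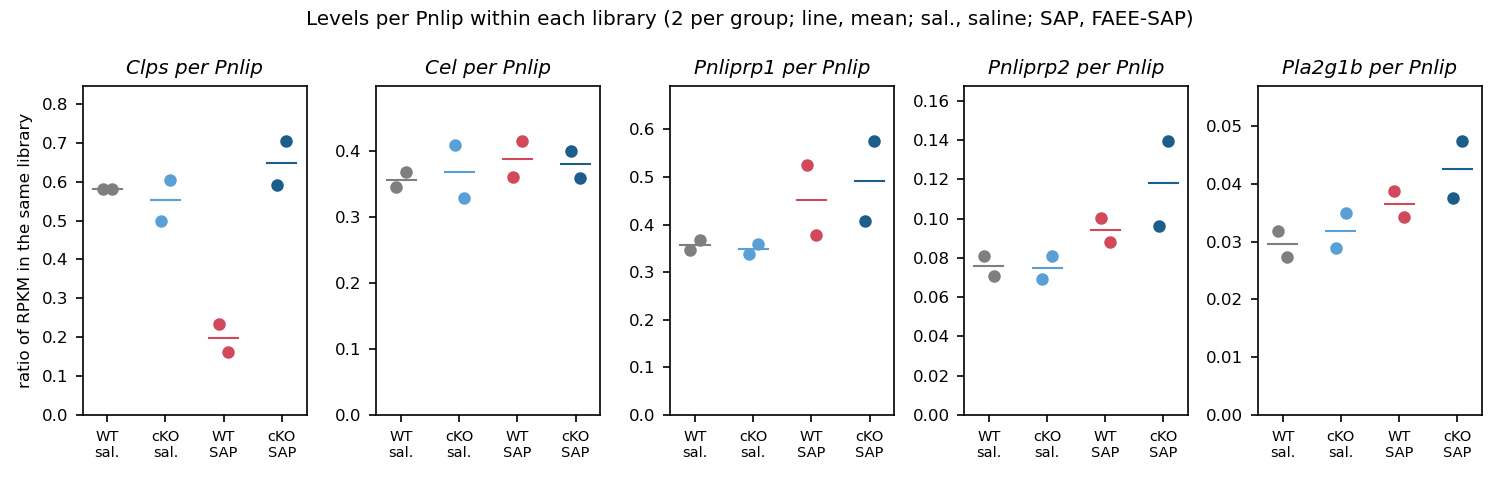
RPKM of each gene per RPKM of *Pnlip* in the same library, from 0 upward, with 2 points and a line at the mean for each group. *Clps* per *Pnlip* is 0.235 and 0.163 in WT FAEE-SAP and 0.499 or more in the other 6 libraries, whereas *Cel* per *Pnlip* stays between 0.328 and 0.415.

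Among the 26 enzyme genes, *Clps* had the lowest log2 fold change of FAEE-SAP against saline in WT mice. The other enzymes include the trypsinogens, chymotrypsins, elastases, carboxypeptidases, and amylases. All 20 were lower in WT FAEE-SAP than in WT saline on the scaled values, and 18 were called, beside 4.12% of all genes called lower, with a median log2 fold change of -1.86 beside 0.01 for all genes and -2.07 for the 6 genes described here. The 3 called with the largest change were the ribonuclease gene *Rnase1* (log2 fold change -3.31), chymotrypsin C (*Ctrc*, -2.88), and carboxypeptidase B (*Cpb1*, -2.47). As deposited, 18 of the 20 were lower in WT FAEE-SAP, 5 were called (0.719% of all genes), and 2 turned higher, and with quantile normalization 14 were lower, 5 were called, 4 turned higher, and the rest did not move. In cKO mice none of the 20 was called, with a median of -0.85. After FAEE-SAP, 14 of the 20 were called higher in cKO than in WT, beside 1.66% of all genes, with a median of 1.45, the same as for the 6 genes. As deposited 19 of the 20 were higher and 2 were called (0.692% of all genes), and with quantile normalization 14 were higher, 2 of them called, and 1 (*Klk1*) was called lower. The counts with quantile normalization are given without the share of all genes called under it, so they have no background to be read against. None of the 20 was called in the interaction after median-of-ratios scaling, whereas 1 was called higher in it as deposited and 1 with quantile normalization, *Ctrc* in both. Relative to the other enzymes, *Ctrc*, an activator and degrader of other zymogens, was called in it too (log2 fold change 1.14, SE 0.27, limma adjusted p = 0.0151), with *Clps* at 1.75 the highest of the 26 and *Ctrc* among the genes that set the scale. The trypsinogen and amylase genes have near-identical copies, so their single values are uncertain.

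**Figure D4:**
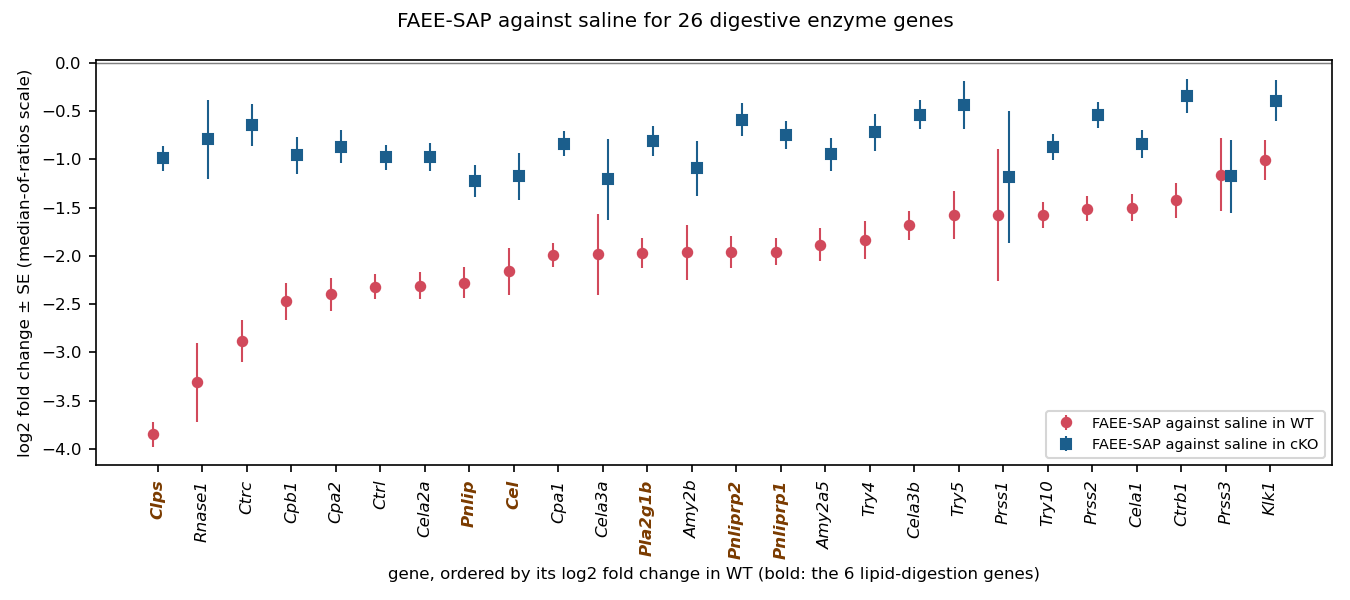
Log2 fold change ± SE of FAEE-SAP against saline for 26 digestive enzyme genes in WT (circles) and cKO (squares), ordered by the WT value, with n = 2 libraries per group. *Clps* is the lowest in WT at -3.85, while its value in cKO, -0.99, lies among the other enzymes.

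Genes with the most similar pattern over the 8 libraries were found by the root mean square (RMS) difference of centered log2 values among 11127 other genes tested. For *Clps* the nearest were *Gal*, the neuropeptide galanin (0.177), *Tmed11* (0.277), and *Aass*, a lysine-degrading enzyme (0.286). *Gal* had a log2 fold change of -3.53 in WT mice and an interaction of 2.44, which follow from its choice by likeness to *Clps* and are given with no test. For *Pla2g1b* the nearest were *Cpa1* (0.0490), *Amy2a1*, and *Try4*. For *Pnlip* they were *Prdx4* (0.140), *Tff2*, and *Cela2a*, for *Cel* *Sycn* (0.151), *Prdx4*, and *Amy2a5*, for *Pnliprp1* *Cbs* (0.109), *Cpa1*, and *Erp27*, and for *Pnliprp2* *Gcat* (0.0744), *Cbs*, and *Try4*. Among the 6 themselves, *Pnliprp2* and *Pla2g1b* were the closest pair (0.0953), then *Pnlip* and *Cel* (0.114). *Clps* was 0.714 to 0.782 from each of the others, while all pairs without *Clps* were within 0.339.

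Other lipase and phospholipase genes, most of them made elsewhere in the body or acting inside cells, were low in these libraries, and how many were called turned on the scaling. Relative to the other digestive enzymes, 3 of 4 lipase family, 6 of 7 phospholipase A2, 9 of 10 intracellular lipase, and 1 of 3 carboxylesterase genes tested were called higher in WT FAEE-SAP than in WT saline, counts near or below the 87.3% of all genes called higher there. The counts that follow are on the median-of-ratios scale. There 4.12% of all genes were called lower and 3.36% higher in WT FAEE-SAP than in WT saline. In cKO against WT after FAEE-SAP, 1.66% were called higher. Of 12 other genes of the lipase family 4 passed the filter. *Lpl*, the lipoprotein lipase of vessel walls, was the only one called, lower in WT FAEE-SAP than in WT saline (log2 fold change -2.23) and higher in cKO than in WT after FAEE-SAP (1.80), and the median of the 4 was 0.20 in WT. Of 22 other phospholipase A2 genes 7 were tested, and *Pla2g7*, which cleaves platelet-activating factor, was called higher in WT FAEE-SAP (log2 fold change 1.05, limma adjusted p = 0.05 as rounded, just under the threshold). The median of the 7 was 0.09. Of 11 intracellular lipase genes 10 were tested, with a median of 0.23. *Abhd6*, a monoacylglycerol lipase, was called higher in WT FAEE-SAP than in WT saline (1.71), and *Dagla*, a diacylglycerol lipase, was called lower there (-2.13) and higher in cKO than in WT after FAEE-SAP (1.41). Of 19 carboxylesterase genes 3 were tested. *Ces1d* and *Ces1e* were called lower in WT FAEE-SAP than in WT saline (-2.68 and -2.05), and *Ces1d* was called higher in cKO than in WT after FAEE-SAP (1.95). None of the tested genes of these 4 lists was called in the interaction, in the saline comparison, or in cKO mice on the scaled values. Relative to the other enzymes, 1, 4, 3, and 0 genes of the 4 lists, in the order above, were called higher in cKO mice, beside 15.0% of all genes. In the interaction 1, 2, 5, and 0 were called lower on that scale, beside 43.3% of all genes. There 1 carboxylesterase gene was called higher, beside 0.359%.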

How the data were processed

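Groups and replicate numbers were read from the labels. Per the study's methods, RNA from pancreas was made into directional libraries and sequenced in pairs, and reads were filtered with fastp and mapped to Ensembl GRCm38.p6 with CLC Genomics Workbench. The authors deposited RPKM for 48709 genes in each library. How RPKM was computed, and how reads shared by several genes were counted, is not given in the sources used here. Low values were whole multiples of 1 read within 0.1 read for 84.1% to 85.5% of values, which gave approximate depth only, so no count model was used.

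Genes with at least 0.5 RPKM in 2 or more libraries (11133) were scaled by the median of ratios over genes above 0 in all 8 libraries and tested as log2(RPKM + 0.1) with limma 3.58.1 in R 4.3.3, in a single model of the 4 groups with an intensity trend. The interaction is the cKO response minus the WT response. P-values were adjusted by Benjamini-Hochberg over all genes tested, and calls needed an adjusted p under 0.05 and at least 2-fold. Fold changes are on the log2(RPKM + 0.1) scale. A second scaling used the median of ratios over the 20 other enzyme genes, and the third left values as deposited. With 2 libraries per group, an exact permutation test of a single value cannot go under p = 0.33 and was not used. On simulated libraries of the WT comparison (10705 genes), the fit recovered 18% of 2-fold, 76% of 4-fold, 90% of 8-fold, and 96% of 16-fold changes. There 50 genes were changed at each fold, up or down, with normal noise, and 8 of 148 calls fell on unchanged genes. Many more genes were called in the data (833), so these shares hold only for the simulated setting.

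Named genes were the 6 genes in every library, at most 3 called genes with the largest change from each other list, the 3 genes of nearest pattern, and *Pfkfb3*. *Klk1*, *Ly6g*, and the acinar markers named for calls relative to the other enzymes were chosen after their values were seen. The gene lists and the 6 genes were chosen with earlier results of these data known. After median-of-ratios scaling, marker lists of other cell types (ductal, macrophage, fibroblast, adipocyte, endothelial, islet) had no called member, up or down, in WT mice except 1 islet gene called lower of 7, and none in cKO mice. After FAEE-SAP, 4 of 7 islet genes were called higher in cKO than in WT on that scale, beside 1.66% of all genes. Scaled to the other enzymes, none was called higher in that comparison and 1 was called lower, beside 73.3% of all genes. Relative to the other enzymes, where 87.3% of all genes were called higher in WT mice and 15.0% in cKO mice, all 6 ductal, 9 macrophage, 9 fibroblast, and 7 endothelial genes, 5 of 7 islet genes, and 3 of 6 adipocyte genes were called higher in WT mice, and 2, 7, 5, 5, 6, and 0 of them in cKO mice. Alternatives covered scaling, filter, pseudocount, variance prior, threshold, samples in the fit, a replicate block, and leaving out each library.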

Additional observations from a re-analysis of the deposited data

Results flagged for a closer look

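*Clps* was the only one of the 6 genes whose response to FAEE-SAP differed between genotypes by the interaction test with a minimum of 0.5 RPKM, whereas *Pnliprp1* and *Pnliprp2* were also called with a minimum of 2 RPKM (limma adjusted p = 0.0383 and 0.0434). The response in cKO minus that in WT was 2.86 on the log2 scale after median-of-ratios scaling (limma adjusted p = 0.00722), 2.19 as deposited (limma adjusted p = 0.0124), and 1.75 relative to the other enzymes (limma adjusted p = 0.0103). After median-of-ratios scaling the call was lost with the replicate block (limma adjusted p = 0.0652), with no filter (0.186), and without any 1 of 3 libraries (0.0772 to 0.0939). Neutrophil markers (57.2 to 60.9 scaled RPKM in WT FAEE-SAP, 13.6 to 20.2 in cKO FAEE-SAP), the other acinar genes, and islet markers moved with the same libraries. All 7 islet interactions were above 0 after median-of-ratios scaling, with a median of 1.36 and none called. Relative to the other enzymes their median was 0.26. The part of these genes in the difference was not tested.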

How the results depend on the processing

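With 2 libraries per group, the spread is borrowed across genes, and a fit that leaves 1 library in a group assumes that it varies like the other groups. For the members' log2 fold changes, 529 of 594 alternative values on the median-of-ratios scale kept their direction and their side of the threshold, 42 lost and 10 gained a call, and 13 changed sign, none with an adjusted p under 0.05. Relative to the other enzymes 293 of 330 values kept both and 37 changed sign, none with an adjusted p under 0.05. The cause of these changes was not tested.

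The 6 calls in WT mice became 1 as deposited and 3 with quantile normalization, and stayed 6 in each fit without 1 library. In cKO mice 0 became 1 with a minimum of 2 RPKM or a pseudocount of 1, and 2 with an unadjusted p, and stayed 0 without 1 library. The 6 calls of cKO against WT after FAEE-SAP became 1 as deposited, 2 with quantile normalization, and 1 with no filter, and ranged from 1 to 6 without 1 library. The interaction call (1) became 0 with no filter, 3 with the higher minimum, and 5 with an unadjusted p, and ranged from 0 to 1 without 1 library. The same replicate number does not mark a shared batch in the labels, and same-numbered deviations correlated from -0.522 to 0.399 between groups. With the replicate block the interaction calls were 0 (*Clps* 2.86, limma adjusted p = 0.0652), the calls of cKO against WT after FAEE-SAP were 5 of 6, and no other count of member calls changed.

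Over all genes, the calls in WT mice were 833 and ranged from 172 to 7202 over the alternatives. They were 15 (range 5 to 745) in cKO mice, 0 (range 0 to 99) after saline, 295 (range 9 to 4454) after FAEE-SAP, and 8 (range 0 to 791) in the interaction. The highest of these counts were as deposited or with an unadjusted p.

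Changed signs, all of genes not called under that setting, were as follows on the log2 scale. As deposited, *Pnliprp2* in cKO mice was 0.064, and cKO against WT after saline was -0.072 for *Pnlip*, -0.11 for *Pnliprp1*, -0.090 for *Pnliprp2*, -0.032 for *Cel*, and -0.15 for *Clps*. With quantile normalization *Pnliprp1* in cKO mice was 0.047, cKO against WT after saline was -0.090 for *Pnlip* and -0.13 for *Pnliprp1*, cKO against WT after FAEE-SAP was -0.15 for *Pnlip* and -0.36 for *Cel*, and the interaction was -0.057 for *Pnlip* and -0.36 for *Cel*. With a reference without trypsinogen and amylase genes, the treatment in WT gave 0.21 for *Pnliprp1*, 0.20 for *Pnliprp2*, 0.0074 for *Cel*, and 0.19 for *Pla2g1b*, cKO against WT after saline gave 0.025 for *Pnlip*, 0.0064 for *Pnliprp2*, 0.065 for *Cel*, and 0.13 for *Pla2g1b*, cKO against WT after FAEE-SAP gave -0.061 for *Pla2g1b*, and the interaction gave -0.14 for *Pnliprp1* and -0.19 for *Pla2g1b*. Relative to the other enzymes and without 1 library, *Pnliprp1* ranged from -0.22 to 0.088 in WT mice, from -0.044 to 0.16 in cKO mice, from -0.16 to 0.13 for cKO against WT after FAEE-SAP, and from -0.048 to 0.28 in the interaction. *Cel* ranged from -0.30 to 0.12 after saline, from -0.40 to 0.045 after FAEE-SAP, and from -0.33 to 0.15 in the interaction. *Pla2g1b* ranged from -0.10 to 0.064 in cKO mice and from -0.11 to 0.063 after saline, and *Pnlip* from -0.17 to 0.13 in the interaction.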
